A study of Mus musculus with 2 samples.

Results

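The 38 genes described here encode enzymes of the routes from acetyl-CoA to cholesterol and long-chain fatty acids, with regulators of their transcription. They are listed by name and pathway role, and each was read through the noncontrol probes annotated to it. They fall into a sterol branch of 17 genes, a fatty acid branch of 15 genes and a control group of 6 genes. Of these, 37 had at least 1 probe well above background on at least 1 array, out of 13848 genes with such a probe, and 36 had one on both arrays. The missing gene was Fads2, a desaturase of polyunsaturated fatty acids, whose only probe gave 8.72 signal units in the knockout pool and 9.97 in the control pool, not well above background on either array.

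The hearts came from H-Bmal1-/- mice, in which floxed Bmal1 (Arntl) was removed by Cre driven from the αMHC (Myh6) promoter, and from littermate controls that carried floxed Bmal1 without the Cre transgene. All mice were males of 12 weeks, and left ventricles were taken at ZT 2, that is 2 h after lights on. RNA of 6 animals per genotype was pooled and hybridised, labelled with Cy3, to 1 mouse whole-genome array per genotype. No group carried the Cre transgene alone, so the deletion and the transgene cannot be told apart, and the promoter acts in cardiomyocytes, so other cells of the ventricle keep Bmal1. Both pools came from 1 clock time, so a changed level and a shifted peak or trough cannot be told apart, a limit the paper names. The paper also reports a raised ratio of heart to body weight and lower fractional shortening in knockouts of this age. The part of that state in the ratios was not tested.

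Each pool was measured once, which means that no difference below has a replicate check and none carries a p-value. Levels are given as Agilent's processed signal, the background-corrected brightness of a probe. Differences are log2 ratios, knockout minus control, after each array was scaled to its own 75th percentile, which was 190 signal units in the knockout array and 171 in the control array. That scaling lowered every ratio by 0.15, so equal signals on both arrays give a ratio slightly below 0. The error given with a ratio is Agilent's own estimate of the error of a spot, carried to the log2 ratio and shown as ±. It describes the measurement of a spot and leaves out the spread between animals. For 247 probes with 8 or more spots per array, the SD of the log2 ratio over spots had a median of 0.07. Changes are counted from 1.5-fold.

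Arntl itself gave 328 signal units in the knockout pool and 513 in the control pool, a log2 ratio of -0.80 ± 0.20 from 1 probe. Whether this probe lies within the deleted exon could not be told from the labels or methods, and it may not report the deletion. Nr1d1, a repressor transcribed under BMAL1, gave 101 in the knockout pool and 385 in the control pool (-2.09). All 10 cardiomyocyte markers were well above background on both arrays. Their ratios lay between -0.42 and -0.08, and their summed scaled level was 7803 in the knockout pool and 8998 in the control pool. All 8 fibroblast markers had ratios above 0, from 0.16 to 1.87 with a median of 0.67, and a summed scaled level of 444 in the knockout pool and 296 in the control pool. Of 11 adipocyte markers, Adipoq, Cidec, Ucp1, Retn and Lep were not well above background on either array, and the other 6 moved apart. Cidea (0.69) and Plin1 (0.56, not well above background in the control pool) had ratios above 0, and Cfd (-0.79), Lipe (-0.63), Fabp4 (-0.32) and Pparg (-0.04) below. Their summed scaled level, 286 in the knockout pool and 324 in the control pool, is mostly that of Fabp4. Of 8 endothelial markers, 2 had ratios above 0 (range -0.22 to 0.10), and of 6 smooth muscle and pericyte markers 2 (-0.27 to 0.32). All 7 measured macrophage markers had ratios above 0 (0.003 to 0.44), as did 2 of 3 measured red cell markers (-0.03 to 0.26). In bulk tissue fewer cells of a type and less RNA per cell cannot be told apart, and the part of cell composition in the ratios below was not tested.

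Cholesterol is made from acetyl-CoA through mevalonate, isoprenoid diphosphates, squalene and lanosterol. Fatty acids are made from the same precursor through malonyl-CoA, which acetyl-CoA carboxylase produces and fatty acid synthase extends to palmitate. Transcription of both branches is driven by the SREBP factors, membrane-bound precursors that SCAP escorts to the Golgi for cleavage and that INSIG proteins hold back when sterols are plentiful. The adult heart makes little fat for storage. Its malonyl-CoA is best known as the inhibitor of carnitine palmitoyltransferase, the entry of fatty acids into mitochondria, and malonyl-CoA decarboxylase removes it.

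Across the 37 measured members, 21 ratios were above 0 (56.8%) and 16 below, where 48.4% of all 13848 genes were above 0. One member, Lss, was at least 1.5-fold higher in the knockout pool, against 7.32% of all genes. Its only probe was not well above background in the control pool. The members at least 1.5-fold lower were 4, Fdft1, Acaca, Acacb and Mlycd, against 5.85% of all genes. Acaca is in that count only through a probe not above background in the knockout pool. With such probes set to their bound its ratio was -0.23 and 3 members were lower. Without scaling, 4 members were higher (Acly, Lss, Scd1 and Sqle) and 1, Acaca, was lower, and of all genes 1486 were higher and 530 lower by 1.5-fold, against 1013 and 810 with it. The median ratio was 0.08 over the members and -0.01 over all genes, and the median size of a ratio, regardless of sign, was 0.17 over the members and 0.19 over all genes. Ratios beyond 1.96 times their software error were seen for 6 members (Fdft1, Sqle, Acly, Acacb, Mlycd and Scd1), against 20.6% of all genes. Acly is among the 6 only through a probe not well above background in the control pool. Its other probe gave 0.03. Both branches held members on either side of 0, and the values are given section by section.

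**Figure D1:**
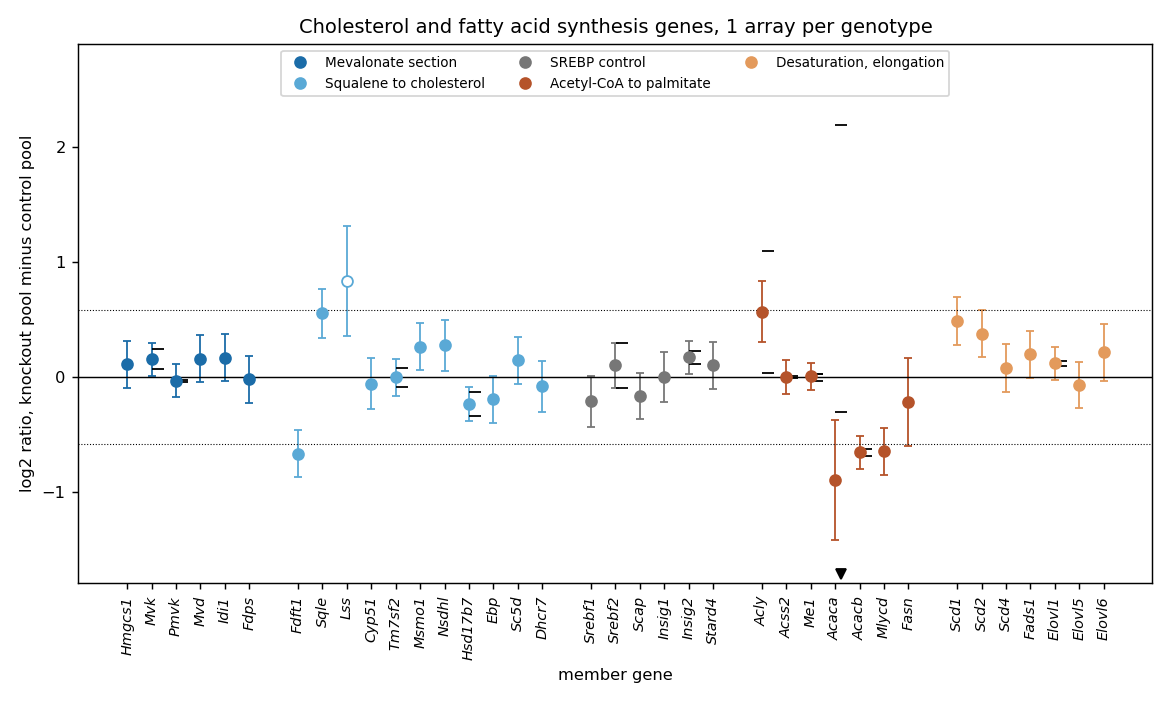
Log2 ratio (knockout pool minus control pool, y axis) of the 37 measured members, grouped by section of the pathway. Points are gene values with bars of ±1 software error, short black marks are single probes of genes with several, the open point was not well above background in the control pool, dotted lines mark 1.5-fold, and the black triangle is an Acaca probe at -4.58, below the axis. Lss lies above the upper dotted line, Fdft1, Acaca, Acacb and Mlycd below the lower one.

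**Figure D2:**
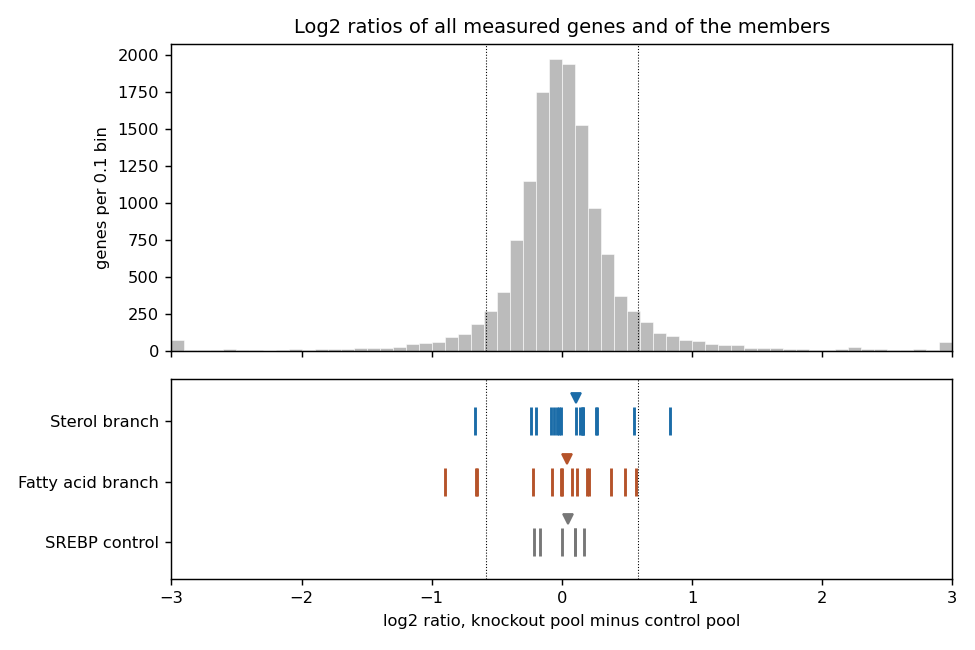
Distribution of log2 ratios (x axis) over 13848 genes as counts per bin, with values beyond 3 in either direction placed in the end bins, above the members of each branch as ticks and the median of each branch as a triangle. Dotted lines mark 1.5-fold. The medians of the sterol branch (0.11), the fatty acid branch (0.04) and the SREBP control group (0.05) all lie in the central bins of the distribution.

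The 6 listed mevalonate-section enzymes, which act between acetyl-CoA and farnesyl diphosphate, were nearly level between the genotypes. They do not cover every step: HMG-CoA reductase, which makes mevalonate, is not among the members and is not described here. Hmgcs1, the cytosolic HMG-CoA synthase that commits acetyl units to the pathway, gave 2370 signal units in the knockout pool and 1976 in the control pool, a scaled log2 ratio of 0.11 ± 0.20. Idi1, isopentenyl diphosphate isomerase, gave 284 in the knockout pool and 228 in the control pool (0.17 ± 0.20). Mvd, mevalonate diphosphate decarboxylase, gave 187 in the knockout pool and 151 in the control pool (0.16 ± 0.21). None of these ratios exceeded its error. The 2 probes of mevalonate kinase (Mvk) had ratios of 0.07 and 0.24, and the 2 of phosphomevalonate kinase (Pmvk) -0.04 and -0.03. Fdps, farnesyl diphosphate synthase, gave 1311 in the knockout pool and 1197 in the control pool (-0.02 ± 0.20). The 6 genes ran from -0.04 to 0.17 with a median of 0.13, and the sign of Pmvk and Fdps turned when the arrays were not scaled.

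Hmgcs1 was the 1 member of 31 with a RefSeq promoter whose window held the sterol regulatory element core TCACNCCAC, the SREBP recognition motif, searched on both strands from 250 bases before to 50 after the start. The 250 bases before its start (GRCm38.p6, chr13:119690101-119690350, plus strand) are printed to show that element beside the NF-Y boxes, CCAAT or its reverse complement ATTGG, that SREBP targets often carry. Capitals mark the element, whose first base lies at -137 from the start, and the boxes.
Hmgcs1: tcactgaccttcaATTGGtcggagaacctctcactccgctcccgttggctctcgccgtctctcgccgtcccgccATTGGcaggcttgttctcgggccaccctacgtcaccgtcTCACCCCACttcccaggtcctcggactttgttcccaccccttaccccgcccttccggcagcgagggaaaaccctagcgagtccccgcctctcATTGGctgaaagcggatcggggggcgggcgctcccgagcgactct
The gene below this promoter differed by 1.08-fold between the pools.

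The 11 genes from squalene to cholesterol spread more widely, from -0.67 to 0.83 around a median of -0.003, with 5 above 0 and 6 below. Fdft1, squalene synthase, which joins farnesyl units into the first committed sterol precursor, gave 522 signal units in the knockout pool and 748 in the control pool, 1.59-fold lower in the knockout pool (log2 ratio -0.67 ± 0.20). Sqle, squalene epoxidase, the next step and an oxygen-dependent one, gave 125 in the knockout pool and 76.7 in the control pool, 1.47-fold higher (0.55 ± 0.21). The intervals of 1.96 software errors ran from -1.07 to -0.27 for Fdft1 and from 0.14 to 0.97 for Sqle, on opposite sides of 0. Of the ratios of all genes, 5.20% lay below that of Fdft1 and 92.1% below that of Sqle. Each value rests on 1 probe: the second Fdft1 probe was not well above background on either array (6.66 in the knockout pool, 3.37 in the control pool), and when such probes were averaged in, the Fdft1 ratio became 0.08.

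Lss, lanosterol synthase, which closes the ring system, gave 17.3 signal units in the knockout pool and 8.76 in the control pool, where it was not well above background. The measured ratio was 0.83 ± 0.48, a 1.78-fold difference that the software error does not separate from 0 (interval -0.10 to 1.77). With another background correction (normexp), which compresses dim probes, it was 0.06.

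The listed enzymes between lanosterol and cholesterol differed little. Msmo1, a methylsterol oxidase, gave 780 in the knockout pool and 585 in the control pool (0.26 ± 0.20). Nsdhl, the dehydrogenase acting in the same demethylation, gave 78.0 in the knockout pool and 58.1 in the control pool (0.27 ± 0.22), and 0.81 when its second probe, dim on both arrays, was averaged in. Hsd17b7, the ketoreductase of that complex, had ratios of -0.35 and -0.13 from 2 probes. The demethylation complex therefore held both signs, and none of the 3 gene ratios was beyond 1.96 errors. Ebp, the sterol isomerase, gave 3117 in the knockout pool and 3213 in the control pool (-0.20 ± 0.20). Cyp51, the lanosterol demethylase of the cytochrome P450 family (-0.06 ± 0.22), Tm7sf2, a sterol reductase (2 probes at -0.09 and 0.08), and Dhcr7, the last reductase (-0.08 ± 0.22), were within 1.06-fold and turned sign without scaling.

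Sc5d, a sterol desaturase, gave 570 in the knockout pool and 465 in the control pool (0.14 ± 0.20). Its promoter is printed because it holds CACGTG, the E-box that the CLOCK and BMAL1 pair binds. That motif stood in at least 1 promoter window of 6 of the 31 members with an entry (19.4%), against 8.09% of all genes with a promoter entry. The window (GRCm38.p6, chr9:42264301-42264450, minus strand) ends at the base before the start, with the E-box beginning at -98 and an NF-Y box in capitals.
Sc5d: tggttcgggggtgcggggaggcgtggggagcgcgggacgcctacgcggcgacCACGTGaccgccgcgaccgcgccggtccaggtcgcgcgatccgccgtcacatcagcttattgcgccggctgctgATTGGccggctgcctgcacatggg
The other 5 members with an E-box were Dhcr7, Hsd17b7, Elovl5, Insig1 and Scap. The ratios of all 6 lay between -0.24 and 0.14 with a median of -0.08, none at 1.5-fold. The 24 measured members whose promoter lacked the motif had a median of 0.09 and 4 at 1.5-fold or more. Of those 4, Lss and Acaca are counted through probes dim on 1 array. Of all genes, 7.32% were higher and 5.85% lower by 1.5-fold, so none among 6 members is close to the share of all genes. The motif match is by letters alone, and binding was not measured in these data.

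The SREBP control group was the flattest of the 3, with ratios from -0.21 to 0.17, a median of 0.05, and none at 1.5-fold or beyond 1.96 errors. Srebf1, whose products favour fatty acid genes, gave 53.6 signal units in the knockout pool and 56.0 in the control pool (-0.21 ± 0.22). Srebf2, whose product favours sterol genes, had probe ratios on both sides of 0. The brighter probe gave 83.8 in the knockout pool and 61.4 in the control pool (0.299 ± 0.215). The dimmer gave 19.5 in the knockout pool and 18.8 in the control pool (-0.10 ± 0.34). Scap, the escort, gave 1649 in the knockout pool and 1667 in the control pool (-0.17 ± 0.20). The retention protein genes Insig1, itself an SREBP target, and Insig2 had ratios of 0.00 ± 0.22 and 0.17 ± 0.14. Stard4, a soluble sterol carrier, gave 222 in the knockout pool and 186 in the control pool (0.10 ± 0.21).

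The 7 genes from acetyl-CoA supply to palmitate held Acacb and Mlycd, lower by 1.5-fold or more on probes well above background on both arrays, and Acaca, whose count as lower rests on a dim probe. Their median was -0.22, with 2 ratios above 0 and 5 below. That median is the value of Fasn, which was close to background on both arrays. Acss2 (-0.0033, among the 5) and Me1 (0.0035, among the 2) lay next to 0, so their signs carry little weight. Whether the section leans to either side was not tested. Acacb, the acetyl-CoA carboxylase of the mitochondrial outer membrane and the form associated with control of fatty acid oxidation, gave 6271 signal units in the knockout pool and 9083 in the control pool by 1 probe. A second probe gave 264 in the knockout pool and 367 in the control pool. The ratios were -0.69 and -0.63, so that the probes differed by less than the error of either, and the gene was 1.58-fold lower (-0.66 ± 0.14). Mlycd, malonyl-CoA decarboxylase, which removes the product of that carboxylase, gave 8851 in the knockout pool and 12503 in the control pool (-0.65 ± 0.20, 1.57-fold lower). The transcripts of the enzyme that makes malonyl-CoA at mitochondria and of the enzyme that degrades it were lower by a like amount. Of all genes, 5.34% had a ratio below that of Acacb and 5.45% below that of Mlycd. Both were short of 1.5-fold when the arrays were left unscaled (-0.51 and -0.50), where the median of all genes was 0.14. All 10 cardiomyocyte markers were below 0 as well (median -0.23, or -0.08 without scaling), and the part of that shift in these ratios was not tested.

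The promoters of Acacb and Mlycd are printed because these were the fatty acid members lower by at least 1.5-fold on probes well above background on both arrays alone. The windows are the 150 bases before each start in GRCm38.p6, chr5:114165368-114165517 for Acacb and chr8:119394744-119394893 for Mlycd, both on the plus strand, with NF-Y boxes in capitals.
Acacb: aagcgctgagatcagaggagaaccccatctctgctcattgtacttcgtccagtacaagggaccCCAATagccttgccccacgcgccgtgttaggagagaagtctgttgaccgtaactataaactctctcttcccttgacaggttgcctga
Mlycd: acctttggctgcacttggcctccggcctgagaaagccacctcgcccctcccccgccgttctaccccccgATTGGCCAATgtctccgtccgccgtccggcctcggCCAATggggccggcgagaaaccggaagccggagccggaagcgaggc
Acacb held 1 such box, at -87, and Mlycd 3, of which 2 abut, and neither held a CACGTG E-box or the sterol element in the searched window.

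Acaca, the cytosolic carboxylase that feeds fatty acid synthase, had no single answer. Its 3 probes, all annotated to the same RefSeq transcript, gave values that differed in sign. The first gave 371 signal units in the knockout pool and 413 in the control pool (-0.31 ± 0.20). The second gave 2.73 in the knockout pool and 59.0 in the control pool (-4.58 ± 1.47). The third gave 45.3 in the knockout pool and 8.90 in the control pool (2.19 ± 0.52). In the knockout pool the second was not well above background. Set to the lowest signal there that was, it was 5.92-fold lower in that pool. The third was not well above background in the control pool. The mean of -0.90 ± 0.52 counts as 1.5-fold lower only because it takes the dim signal of the second probe at face value. With that signal raised to its bound the mean was -0.23, and the probe well above background on both arrays alone gave -0.31. Under normexp the 3 probes gave -0.20, -0.73 and 0.42.

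**Figure D3:**
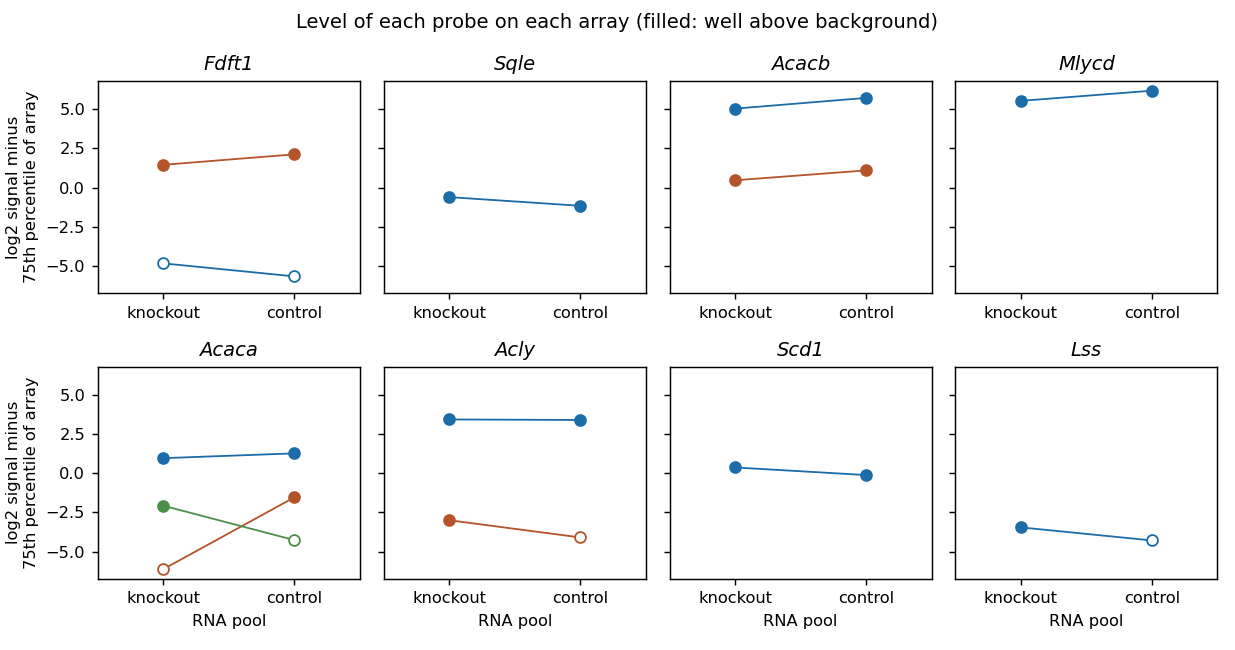
Scaled log2 level (y axis, log2 signal minus the 75th percentile of the array) of every probe of 8 members in the knockout pool (left) and the control pool (right). Each line is 1 probe, and open points were not well above background. Both Acacb probes and the Mlycd probe are lower in the knockout pool, the 3 Acaca probes run in different directions, and Acly has 1 level probe and 1 probe that is dim in the control pool.

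Acly, ATP citrate lyase, which releases cytosolic acetyl-CoA from citrate, averaged 0.57 ± 0.26 over 2 probes, both above 0 but far apart in size. The probe well above background on both arrays gave 2058 signal units in the knockout pool and 1811 in the control pool (0.03 ± 0.20). The other gave 23.8 in the knockout pool and 10.01 in the control pool, where it was not well above background (1.1 ± 0.49). Acss2, which makes acetyl-CoA from acetate, and Me1, the cytosolic malic enzyme that supplies NADPH, were level in every probe, at -0.01 and 0.01 over 2 probes for Acss2 and from -0.04 to 0.03 over 3 probes for Me1. Fasn, fatty acid synthase, gave 15.3 in the knockout pool and 16.05 in the control pool (-0.22 ± 0.39), close to background on both arrays.

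Of the desaturases and elongases, 6 of 7 measured ratios were above 0, with a median of 0.20, and none reached 1.5-fold. The largest was Scd1, a stearoyl-CoA desaturase that introduces the first double bond, with 246 signal units in the knockout pool and 158 in the control pool (0.49 ± 0.21, 1.40-fold higher, interval 0.08 to 0.89). Scd2 gave 966 in the knockout pool and 671 in the control pool (0.37 ± 0.20), and Scd4, an isoform known from the mouse heart, 108 in the knockout pool and 92.3 in the control pool (0.08 ± 0.21). The 3 Scd genes are close paralogues, and cross-hybridisation between their probes was not tested. Fads1, another desaturase of polyunsaturated fatty acids, gave 254 in the knockout pool and 200 in the control pool (0.20 ± 0.20).

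Among the elongases, Elovl6, which extends palmitate, gave 40.4 in the knockout pool and 31.4 in the control pool (0.21 ± 0.25), and 0.01 under normexp. Elovl1, an elongase of very long chains, had probe ratios of 0.13 and 0.10. Elovl5, which extends polyunsaturated chains, gave 612 in the knockout pool and 579 in the control pool (-0.07 ± 0.20), the only ratio of the section below 0, and one that turned sign without scaling. 

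Over the 31 members with a promoter entry, each counted if any of its windows held a motif, the NF-Y box was the common element. It stood in 26 (83.9%), against 41.1% of genes with a promoter entry, in all 14 sterol members with an entry, in 8 of 12 fatty acid members and in 4 of 5 of the control group. The sterol element core stood in 3.23% of the members with an entry and 1.44% of genes. These gene shares, and that given for the E-box, cover genes with an entry whether or not they were measured here. Shares among the measured genes were not counted. Ratios of the members with an NF-Y box ran from -0.66 to 0.83 with a median of 0.002, spanning nearly the whole range of the members. A motif missing from these windows says only that the letters are not there.

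Genes beside the pathways were read from 6 further lists, none of them members. In SREBP maturation, 7 of 8 genes were measured, with 3 above 0 and none at 1.5-fold. The range was from -0.23 for Mbtps2, the membrane protease that completes SREBP cleavage, to 0.26 for Erlin2, which takes part in the degradation of sterol-sensing proteins. The isoprenoid branch, which spends farnesyl diphosphate on prenylation and dolichol, held 10 genes, 6 above 0, from -0.31 for Rabggta to 0.15 for Fntb, both prenyltransferase subunits, and none at 1.5-fold. Mitochondrial fatty acid synthesis, a separate pathway that makes the precursor of lipoate, had 8 of 10 genes measured and 7 above 0. It ran from -0.10 for Acsf3, malonyl-CoA synthetase, to 0.17 for Lias, lipoate synthase, again with none at 1.5-fold.

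Of the sterol handling genes, 19 of 20 were measured, 6 above 0, with a median of -0.15 that became 0.004 without scaling. Npc1, which exports cholesterol from lysosomes, gave 69.7 signal units in the knockout pool and 122 in the control pool, 1.95-fold lower (-0.96 ± 0.21, and -0.58 under normexp). It was the only gene of that list past 1.5-fold, with Vldlr, a lipoprotein receptor, just short of it at -0.58 ± 0.14. Ch25h, a cholesterol hydroxylase, gave 84.7 in the knockout pool and 50.9 in the control pool (0.58 ± 0.22), and 0.20 under normexp.

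The accessory genes of fatty acid synthesis had 20 of 25 measured, 9 above 0, with a median of -0.07, or 0.08 without scaling. Mid1ip1, whose product activates acetyl-CoA carboxylase by promoting its polymerisation, gave 2701 in the knockout pool and 5124 in the control pool, 2.11-fold lower (-1.08 ± 0.20). Its ratio lay between -1.08 and -0.92 under every alternative tried. Acss1, the mitochondrial acetyl-CoA synthetase, gave 12878 in the knockout pool and 17499 in the control pool (-0.59 ± 0.20). Idh1, a cytosolic source of NADPH, gave 105 in the knockout pool and 142 in the control pool (-0.59 ± 0.21). Both lay at the 1.5-fold limit, and without scaling both were at -0.44. Me2, the mitochondrial malic enzyme, was highest of the list at 0.50 ± 0.21.

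AMPK, the kinase that phosphorylates and inhibits both acetyl-CoA carboxylases, had all 9 listed genes measured, those of its upstream kinase included, with 4 above 0. The catalytic subunit genes were nearly level, at 0.10 for Prkaa1 and -0.03 for Prkaa2. The beta subunit genes stood apart in opposite directions. Prkab1 gave 188 signal units in the knockout pool and 317 in the control pool, 1.88-fold lower (-0.91 ± 0.21), and Prkab2 gave 1959 in the knockout pool and 970 in the control pool, 1.82-fold higher (0.86 ± 0.20). Each rests on 1 probe, and no alternative brought Prkab1 above -0.71 or Prkab2 below 0.85. Prkag3, a gamma subunit known from skeletal muscle, gave 49.9 in the knockout pool and 19.0 in the control pool (1.24 ± 0.28), but 0.38 under normexp.

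**Figure D4:**
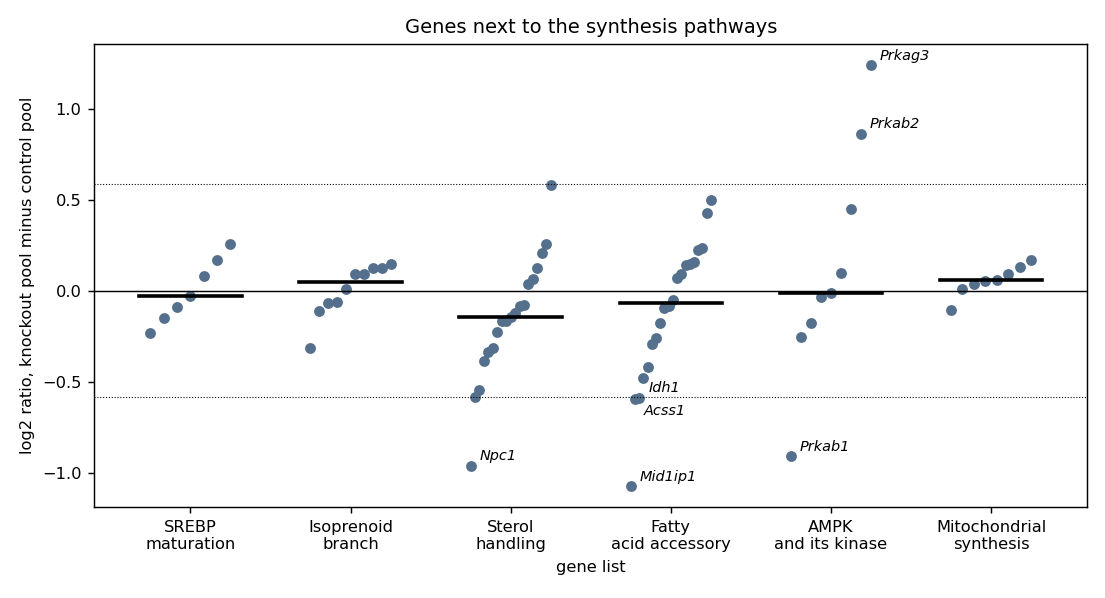
Log2 ratio (knockout pool minus control pool, y axis) of each measured gene in 6 lists of genes beside the synthesis pathways, with the median of each list as a bar and 1.5-fold as dotted lines. Names mark the genes past 1.5-fold: Npc1, Mid1ip1, Acss1, Idh1 and Prkab1 lower, Prkab2 and Prkag3 higher in the knockout pool.

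Probes of 1 gene bear on how far a single-probe value can be read. Of the 12 members with several measured probes, 5 (41.7%) had probes on both sides of 0, against 31.0% of the 3541 genes with several. The other 25 measured members had 1 probe. Under the scalings tried, 19 members stayed above 0 and 9 below, while Pmvk, Fdps, Cyp51, Tm7sf2, Dhcr7, Insig1, Acss2, Me1 and Elovl5 turned sign. Under every alternative that gave a value, 18 stayed above 0 and 8 below; Lss, among the 18, has none with only probes well above background on both arrays. Sqle stayed between 0.36 and 0.70, Scd1 between 0.39 and 0.64, Acacb between -0.69 and -0.50, and Mlycd between -0.66 and -0.50. Fdft1 ran from -0.68 to 0.08, Acaca from -0.90 to -0.17, Acly from 0.03 to 0.72 and Lss from 0.06 to 0.99.

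**Figure D5:**
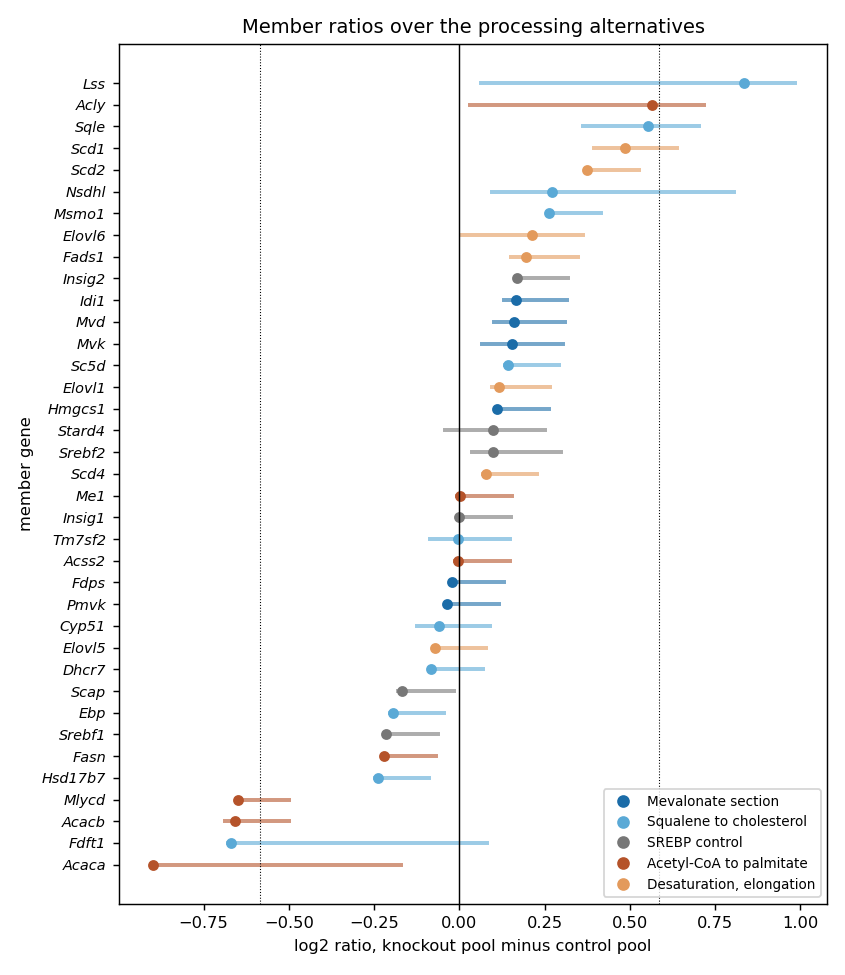
Log2 ratio (knockout pool minus control pool, x axis) of each measured member as a point, with a bar from its lowest to its highest value over the processing alternatives, coloured by pathway section, and 1.5-fold as dotted lines. The bars of Lss, Acly, Nsdhl, Fdft1 and Acaca are long, and those of Mlycd and Acacb stay below 0 throughout.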

How the data were processed

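Left ventricular RNA pooled from 6 animals per genotype was hybridised by the authors to 1 Agilent 8x60K mouse array each. The arrays shared 1 slide and 1 scan. The deposited files hold background-corrected signal intensities from Feature Extraction (10.5.1.1 per the processing notes, 10.10.1.1 per the file headers), with their error estimates. The deposited series value table holds the same linear intensities multiplied by a factor per array (log2 2.31 for the knockout, 2.45 for the control; medians 64 and 67.2) that was set by a rule not given in the sources used here. It was used as an alternative.

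Outlier spots (269) and control spots were left out, spots of a probe were averaged, and each array was scaled to the 75th percentile of its log2 signals. Probes were named through their RefSeq or Ensembl accession, leaving out accessions shared by several genes (26759 of 55676 probes). The value of a gene is the mean over its probes, leaving out any that neither array measured well above background. Of 59305 spots, 50.0% were well above background on the knockout array and 49.4% on the control array, and none was saturated. A gene well above background on 1 array was counted by a bound: on the dim array it was set to the lowest signal of any probe well above background, or to its own where that was higher. Some dim probes lay above that lowest signal, so the bound is a convention and no strict limit. The number of arrays limits the precision. The procedure was tested on simulated data, with changes put only into genes having a probe well above background on both arrays. That test did not cover the bound used on a dim array.

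The members and lists were chosen with earlier results of these data known. All members are named. From the 6 further pathway lists, genes at least 1.5-fold apart and well above background on both arrays are named, and otherwise the lowest and highest, with Prkaa1, Prkaa2 and Vldlr added after their values were seen. Marker lists are given by counts, ranges and defining markers, with Cidea, Plin1, Cfd, Lipe, Fabp4 and Pparg named after their values were seen. Arntl and Nr1d1 check the labels. Promoters are RefSeq's (GRCm38.p6). Analyses used Python 3.11.15, numpy 2.4.6, pandas 2.3.3, and limma 3.58.1 in R 4.3.3 for the quantile, cyclic loess and normexp (offset 50, median signal and median local background) alternatives.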

Additional observations from a re-analysis of the deposited data

How the results depend on the processing

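Of 406 member values compared over 11 alternatives, 386 moved by less than their software error, 19 by more, and 1 reversed. Only members at 1.5-fold or more could count as reversed: the log2 ratio of Fdft1 became 0.0801 when dim probes were kept. Sign changes of smaller ratios, such as those of the 9 members that turned under a scaling, were not counted so. By construction, the 25 members with 1 measured probe keep their value when the brightest probe is taken. Leaving out the scaling shifts every ratio by 0.15, below the median member error of 0.20. The count of 386 therefore does not measure how firm the ratios are. Without scaling, 1486 genes were higher and 530 lower by 1.5-fold, or 73.7% higher of those counted, against 1013 and 810 (55.6%) with it. The medians were 0.14 for all genes, 0.26 for the sterol branch, 0.19 for the fatty acid branch and 0.20 for the SREBP control group, 14 sterol genes were above 0, 2 sterol genes were higher and 0 lower, and 2 fatty acid genes were higher and 1 lower. Quantile normalization and cyclic loess each gave 2 sterol genes and 1 fatty acid gene higher. With normexp, 369 of all genes were higher and 248 lower, 0 sterol genes were higher or lower, and 1 fatty acid gene was lower. With only probes well above background on both arrays, 618 genes were higher, and 0 sterol genes. With no filter on dim probes the median of all genes was -0.10, and 2 sterol genes were higher and 0 lower. With dim sides of probes set to their bound, an alternative chosen after seeing the data, 2 fatty acid genes were lower and Acaca was at -0.23. Counted at 1.3-fold, 1731 genes were higher and 1642 lower, with 2 sterol and 2 fatty acid genes higher. Counted at 2-fold, 446 were higher and 285 lower, with 0 sterol genes in either direction and 0 fatty acid genes lower. Apart from the fold that is counted and the filter, which act by construction, the cause was not tested.

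No paired analysis was possible because each genotype has 1 array, which also leaves no replicate to leave out. Ratios of probes near background, such as those of Lss, Fasn and single probes of Acly and Acaca, are limited by signal over background, and all ratios compare 2 pools rather than animals.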
